A study of Mus musculus with 16 samples.

Results

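Of 7710 genes detected on all 4 arrays of mouse embryonic stem (ES) cells, 216 were high only there. They were selected on the measured values themselves. After quantile normalization of the 16 arrays on the log2 scale without background subtraction, each gene was represented by its brightest probe. A gene was kept when its detection p-value was under 0.01 on all 4 ES arrays and its ES mean lay at least 1 log2 unit (2-fold) above the mean of each of 3 other groups. The array covers 16590 named genes.

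The groups followed a stepwise induction of induced pluripotent stem (iPS) cells, with 4 dishes and 1 array per dish in each. ES cells were of strain 129, carry the tag R26 in their titles and grew with 15% serum and 10 ng/ml of the cytokine LIF on growth-arrested fibroblast feeders. MEF were embryonic fibroblasts of strain CD1 grown alone with 10% serum. OKM cells, the intermediate stage, were CD1 cells marked 3F in their titles, grown as the ES cells were. iPS cells were CD1 cells marked 3F-SOX2, also grown as the ES cells were. The labels do not spell out OKM, which commonly stands for Oct4, Klf4 and Myc, nor how many lines or clones each group holds, nor how any factor was delivered or whether it was still supplied. Since ES cells alone were of strain 129, their strain, line and cell state cannot be told apart in any value set against ES cells. MEF differed from OKM and iPS cells in serum and feeders, and no LIF is given for them. Culture and cell state thus cannot be told apart in any contrast of OKM or iPS cells with MEF.

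Mouse ES cells hold themselves in a naive pluripotent state through a network of transcription factors, among them Nanog, Esrrb, Sox2 and the Krüppel-like factors Klf2 and Klf4, which LIF signalling helps to maintain. Most of the network is silent in fibroblasts, and its restart marks reprogramming to iPS cells. ES cells also secrete signals of the Nodal and FGF families that act on their own neighbours.

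Levels below are log2 intensities after background correction with the detection p-values and quantile normalization, given as mean ± SD over 4 arrays. Detection on an array means a detection p-value under 0.01, as in the selection. Between 44.9% and 49.1% of the probes were detected on each array, and the raw median intensity lay between 114.7 and 134.2. The sum of 27 fibroblast and feeder markers on the linear scale was 8720 on the array of ES replicate 5 and 19100 to 21500 on the other 3 ES arrays, against 317000 to 325000 in MEF, 42500 to 47000 in OKM and 33900 to 38200 in iPS cells. None of these markers is a member. Of the 27, 15 were detected on all ES arrays, and 5 (Col1a2, Col3a1, Col5a2, Postn and Ogn) on no ES and no iPS array, of which Postn was on no MEF array either. The part of feeder RNA in the members' values was not tested. The labels call the dishes of a group independent without saying what separated them, so the p-values measure the spread between dishes.

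The chosen gap, the ES mean minus the highest of the other 3 group means on the scale of the selection, had a median of 1.23 and reached 3.76. It was at least 1.5 in 53 members, at least 2 in 24 and at least 3 in 3. Just inside the limit were Lsr at 1.0005, Erich1 at 1.0010, Tcf15 at 1.0013, Faah at 1.0030 and Atp5g2 at 1.0041. Just outside were Ubox5 at 0.9994, Mcm3 at 0.9992, Rpusd4 at 0.9987, and Pxmp2 and Gfpt2 at 0.9976, so the limit cuts through a continuous range. Pou5f1, the central factor of the network, also fell short with a gap of 0.89 (named for its role after its value was seen). Every ES array lay above all 12 other arrays for 216 of the 216 members, which the selection largely fixes (it held for 17.8% of all genes tested). The members' median level was 9.84 in ES cells, against 5.88 in MEF, 6.81 in OKM and 8.07 in iPS cells.

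**Figure D1:**
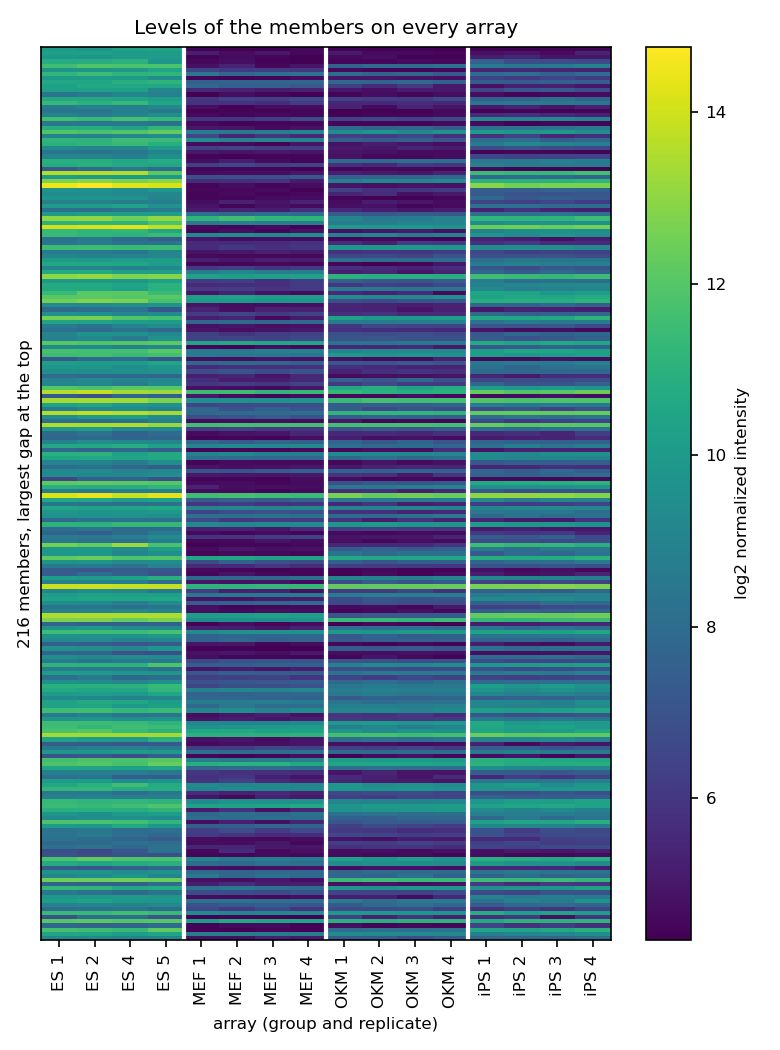
Normalized log2 intensity (colour) of the 216 members (rows, largest gap at the top) on the 16 arrays (columns, by group and replicate). The 4 ES columns are the brightest in every row, and the other columns run from background (dark, near 4.4) to levels above 12 in iPS and OKM cells.

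The other groups did not look alike below this limit. MEF had no detected array for 96 members, OKM cells for 59 and iPS cells for 26. iPS cells were the highest of the 3 for 170 members, OKM cells for 26 and MEF for 20. In all, 93 members were detected on all 12 arrays outside ES, 28 on all OKM and iPS arrays but no MEF array, and 23 on all iPS arrays but no MEF or OKM array. A further 23 were detected on no array outside ES, and the remaining 49 had other patterns. Detection outside ES cells was thus the rule among the members, and its lack the exception.

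The contrasts among the other 3 groups were not used in the selection, which caps each mean 1 log2 unit below ES cells but does not set their order. A change was called at an adjusted p under 0.05 (limma, Benjamini-Hochberg over all 9451 genes) and at least 2-fold. In OKM cells against MEF, 51 of 216 members (23.6%) rose and 13 (6.02%) fell, where 16.1% of all genes rose and 15.7% fell. The median change was 0.24, against 0.02 over all genes, and 53 members were detected in neither group. In iPS against OKM cells, 79 (36.6%) rose and 1 (0.463%) fell, where 7.28% of all genes rose and 5.95% fell. The median change was 0.64, against -0.02, with 23 members detected in neither group. In iPS cells against MEF, 115 (53.2%) rose and 3 (1.39%) fell, where 19% and 17.5% of all genes did. The median was 1.13 against 0.03, and 25 members were detected in neither group. The 96 members detected on no MEF array had little room to fall against MEF. The same held for the 59 on no OKM array in iPS against OKM cells. The 23 members detected in ES cells alone passed the detection filter through the ES arrays. OKM, MEF and iPS arrays are each shared by 2 of these contrasts. The counts for iPS against OKM cells fell to 49 and 0 without background correction, a change of over 1.5 times for the rises. Those for OKM cells against MEF fell to 34 and 7, and those for iPS cells against MEF to 78 and 2. The shares over all genes were computed with background correction only, so the members' excess without it is not known.

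**Figure D2:**
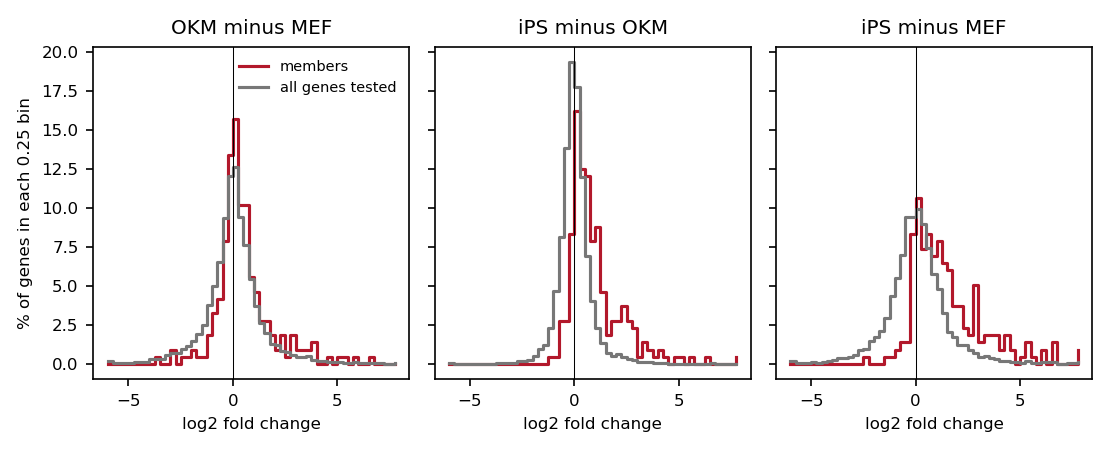
Share of genes (percent per bin of 0.25) by log2 fold change for the 216 members and for the 9451 genes tested, in the 3 contrasts among OKM, MEF and iPS cells (values beyond the axis are in the end bins). The members' curve lies to the right of that of all genes, most clearly for iPS cells, with median changes of 0.64 against OKM cells and 1.13 against MEF.

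Among the naive regulators, 8 of the 18 on the array were members: Tcl1, Esrrb, Nr5a2, Tbx3, Klf4, Nanog, Klf2 and Sox2. They were not uniform in the other groups, as the plot of levels for 12 members shows.

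Esrrb, an orphan nuclear receptor that sustains self-renewal, was the brightest member, with 14.49, 14.76, 14.30 and 14.14 on the ES arrays. Its levels were 4.52 to 4.73 on the MEF arrays, 4.78 to 4.95 on the OKM arrays and 12.49 to 12.93 on the iPS arrays. It was detected on no MEF or OKM array, so the ES level was at least 407-fold that of MEF and at least 437-fold that of OKM cells, and 1.74 log2 units above iPS cells. In folds given as "at least", a group without detection was counted at the lowest level that any detected probe had on each of its arrays. In iPS against OKM cells, a contrast the selection did not use, Esrrb rose at least 131-fold (log2 change 7.82 ± 0.12 SE, adjusted p = 3.74e-18, limma), with no overlap between the groups.

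Nanog, the homeobox factor of the same network, had 11.41, 12.09, 12.10 and 11.43 on the ES arrays, against 4.67 to 5.32 in MEF, 4.63 to 5.61 in OKM and 9.90 to 10.46 in iPS cells. It was detected on 1 OKM array of 4, and it rose by 4.92 ± 0.22 in iPS against OKM cells (adjusted p = 5.07e-12, limma). Tcl1, a co-activator of the kinase Akt, followed the same order, with 11.11 ± 0.22 in ES cells, against 4.65 ± 0.17 in MEF, 4.93 ± 0.19 in OKM and 8.93 ± 0.21 in iPS cells. Nr5a2, a nuclear receptor that can drive Pou5f1, reached 9.33 ± 0.13 in ES and 7.12 ± 0.14 in iPS cells and was detected on no MEF or OKM array. Tcl1 and Nr5a2 rose at least 9.69-fold and at least 2.77-fold in iPS against OKM cells (adjusted p = 1.02e-13 and 7.71e-09, limma). Without background correction the Nr5a2 change was 0.88 in place of 1.87 log2 units and not called. None of these 4 genes was called between OKM cells and MEF, except Nr5a2 in the authors' normalized table, where it was 1.26 higher in OKM cells.

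Klf4 stood apart from them. Its 4 ES arrays gave 10.73, 10.73, 10.31 and 10.28, against 8.71, 9.11, 8.76 and 8.86 in MEF, 5.24, 5.47, 4.95 and 5.39 in OKM and 7.77, 7.38, 7.94 and 7.64 in iPS cells. MEF were thus the next highest group, and OKM cells, whose name commonly includes this factor, had it on no array. Klf4 fell at least 9.22-fold in OKM cells against MEF (adjusted p = 3.81e-13, limma) and rose at least 4.08-fold in iPS against OKM cells (adjusted p = 3.70e-10, limma). iPS cells lay 1.18 ± 0.15 below MEF (adjusted p = 1.32e-06, limma), and without background correction that change was -0.92 and no longer called. All 3 Klf4 probes had a gap above 1, from 1.21 to 1.49. The position of the probes in the transcripts is not known here, so signal from a supplied factor and from the endogenous gene cannot be told apart, for Klf4 or for Sox2.

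Klf2, a related factor on chromosome 8, was also lower in OKM cells than in MEF. It had 12.44 ± 0.49 in ES cells, against 9.88 ± 0.09 in MEF, 6.91 ± 0.15 in OKM and 10.96 ± 0.11 in iPS cells. Klf2 fell by 2.97 in OKM cells against MEF and rose by 4.05 in iPS against OKM cells (adjusted p = 3.50e-11 and 2.34e-12, limma). Tbx3, a T-box repressor, had 10.20 ± 0.09 in ES cells, against 8.14 ± 0.14 in MEF, 7.28 ± 0.11 in OKM and 8.31 ± 0.08 in iPS cells, and its change of -0.86 in OKM cells against MEF stayed under 2-fold.

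Sox2, the partner of Pou5f1 on DNA, was already high at the intermediate stage. It had 12.60, 12.61, 11.88 and 11.65 on the ES arrays, against 4.63 to 5.41 in MEF, 10.01 to 10.36 in OKM and 10.52 to 11.14 in iPS cells. No MEF array detected it, and it rose at least 20.6-fold in OKM cells against MEF (log2 change 5.03 ± 0.21, adjusted p = 4.80e-13, limma). iPS cells exceeded OKM cells by 0.62, which was not called. A second Sox2 probe was detected on 1 ES array and on no other array, so these levels rest on 1 probe.

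**Figure D3:**
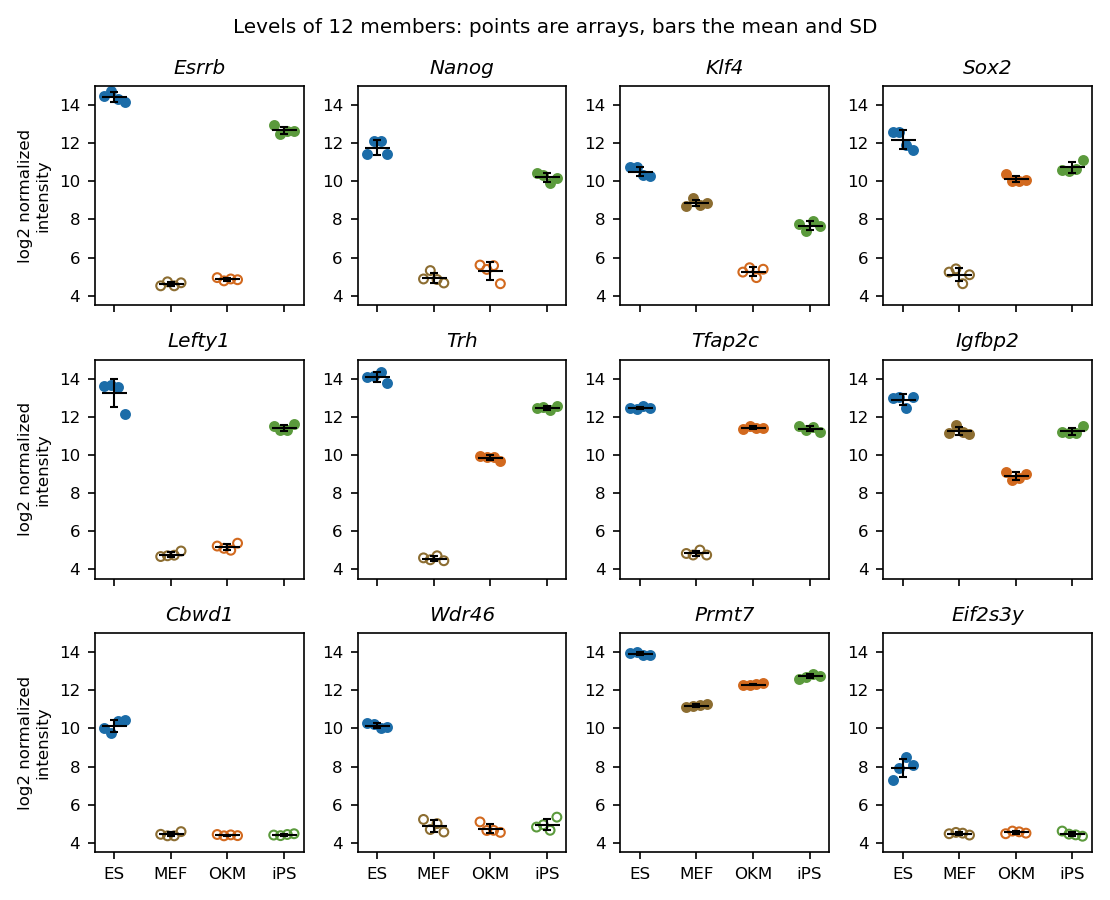
Normalized log2 intensity of 12 members on every array, by group, with bars for the mean and SD of 4 arrays; open points mark groups in which fewer than 4 arrays detected the gene. Klf4 and Igfbp2 are lower in OKM cells than in MEF, Sox2 and Tfap2c are already high in OKM cells, and Cbwd1, Wdr46 and Eif2s3y lie at background everywhere but in ES cells.

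Of the 15 naive regulators tested, members or not, 5 rose and 2 fell in OKM cells against MEF, 12 rose and 0 fell in iPS against OKM cells, and 13 rose and 1 fell in iPS cells against MEF. Over all genes, 16.1% rose and 15.7% fell in the first contrast, 7.28% and 5.95% in the second and 19% and 17.5% in the last. Of the 18 naive regulators on the array, 12 were detected on no MEF array and 8 on no OKM array. Those had little room to fall. The median changes of the naive regulators were 0.71, 2.42 and 5.29 log2 units, against 0.02, -0.02 and 0.03 over all 9451 genes tested. The list and its members were chosen with earlier results of these data known.

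Promoter sequences of 4 members are shown because their genes mark the different patterns: off until iPS (Esrrb), lost in OKM cells (Klf4), rising at both steps (Trh) and detected only in ES cells (Wdr46). They are from RefSeq, build GRCm38.p6, and hold the 300 bases around the annotated transcript start, on the strand of the gene, 5′ to 3′. Esrrb is on the plus strand at chr12:86360867-86361166 (the first of 2 listed starts), Klf4 on the minus strand at chr4:55532426-55532725, Trh on the minus strand at chr6:92244601-92244900 and Wdr46 on the plus strand at chr17:33940473-33940772. Capitals mark matches to the searched motifs.
Esrrb: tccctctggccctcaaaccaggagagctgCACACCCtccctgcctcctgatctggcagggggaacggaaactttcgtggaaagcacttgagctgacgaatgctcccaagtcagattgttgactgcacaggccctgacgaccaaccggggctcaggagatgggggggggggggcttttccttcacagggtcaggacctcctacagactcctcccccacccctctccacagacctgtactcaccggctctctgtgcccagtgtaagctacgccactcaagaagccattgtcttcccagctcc
Klf4: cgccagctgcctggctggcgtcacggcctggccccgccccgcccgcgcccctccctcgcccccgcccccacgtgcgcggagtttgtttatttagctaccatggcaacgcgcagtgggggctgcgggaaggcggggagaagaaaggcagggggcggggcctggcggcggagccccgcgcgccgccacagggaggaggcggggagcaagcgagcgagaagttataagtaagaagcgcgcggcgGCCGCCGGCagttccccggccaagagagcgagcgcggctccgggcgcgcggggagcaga
Trh: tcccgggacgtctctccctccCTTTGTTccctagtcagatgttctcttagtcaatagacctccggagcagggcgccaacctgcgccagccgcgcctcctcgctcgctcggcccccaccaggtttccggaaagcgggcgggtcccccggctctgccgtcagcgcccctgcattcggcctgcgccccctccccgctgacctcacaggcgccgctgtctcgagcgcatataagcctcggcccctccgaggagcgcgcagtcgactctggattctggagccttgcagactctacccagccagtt
Wdr46: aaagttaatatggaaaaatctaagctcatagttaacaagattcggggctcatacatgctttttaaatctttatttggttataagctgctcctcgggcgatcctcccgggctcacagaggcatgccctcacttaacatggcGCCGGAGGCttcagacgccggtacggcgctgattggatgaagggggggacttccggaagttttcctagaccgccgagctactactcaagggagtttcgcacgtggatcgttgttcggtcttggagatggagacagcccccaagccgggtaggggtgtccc
A RefSeq promoter was matched for 164 of the 216 members. Both strands were searched for 4 motifs, GGGTGTG (KLF), GCCNNNGGC (TFAP2), AACAAAG (SOX) and TCAAGGTCA (ESRRB and NR5A), none of which overlapped another in the 4 sequences shown. The KLF letters were in 12.2% of the members' promoters, against 8.27% of those of genes detected on all ES arrays and 7.85% of all 27025 promoters. TFAP2 letters were in 20.1%, against 25.6% and 16.5%. SOX letters were in 3.05%, against 3.59% and 5.79%, and the ESRRB and NR5A letters in 0 of 164, against 0.286% and 0.407%. A match describes letters only. The ratio of observed to expected CpG had a median of 0.675 in the members' promoters and 0.775 in the 6289 promoters of genes detected on all ES arrays, and was 0.266 in the Esrrb promoter and 0.974 in that of Klf4.

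Of 25 further ES cell associated genes on the array, 7 were members: Lefty1, Fgf4, Trh, Mybl2, Lefty2, Gdf3 and Ifitm1. Of the 24 tested in this list, 17 rose and 0 fell in OKM cells against MEF, 15 rose and 2 fell in iPS against OKM cells, and 22 rose and 0 fell in iPS cells against MEF. The shares over all genes were 16.1% up and 15.7% down, 7.28% and 5.95%, and 19% and 17.5% in the same contrasts. Of the 25 listed genes on the array, 18 were detected on no MEF array and 4 on no OKM array. Those had little room to fall.

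Several of them encode secreted signals. Lefty1, an inhibitor of Nodal, had 13.60, 13.66, 13.56 and 12.12 on the ES arrays, against 4.67 to 4.96 in MEF, 5.00 to 5.37 in OKM and 11.29 to 11.62 in iPS cells. ES replicate 5 was the low array, and still above every iPS array. Lefty1 rose at least 55.0-fold in iPS against OKM cells (adjusted p = 7.72e-13, limma). Lefty2, its close relative, had 12.47 ± 0.59 in ES and 11.25 ± 0.24 in iPS cells and rose by 5.62 ± 0.21 in iPS against OKM cells (adjusted p = 5.24e-13, limma). The paralogues are alike enough that cross-hybridisation between their probes was not checked. Gdf3, a ligand of the same family, rose at both steps, at least 2.98-fold in OKM cells against MEF and by 3.20 log2 units in iPS against OKM cells (adjusted p = 2.02e-09 and 7.83e-11, limma), and had 11.62 ± 0.29 in ES cells, against 10.53 ± 0.27 in iPS cells. These were the 3 members among 29 genes of the Nodal, TGF-beta and BMP pathways on the array. In that list of 26 tested, 7 rose and 12 fell in OKM cells against MEF, and 6 rose and 4 fell in iPS against OKM cells, where 16.1% of all genes rose and 15.7% fell in the first contrast and 7.28% and 5.95% in the second.

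Fgf4, the growth factor through which ES cells drive their own ERK signalling, had 9.61, 9.67, 9.40 and 9.90 in ES cells, against 4.41 to 4.64 in MEF, 5.76 to 6.35 in OKM and 7.42 to 7.64 in iPS cells. It rose at least 1.22-fold in OKM cells against MEF and by 1.5 log2 units in iPS against OKM cells (adjusted p = 5.67e-09 and 1.76e-08, limma). Without background correction neither was called, with log2 changes of 0.65 and 0.84. Fgf17 had 10.06 ± 0.32 in ES and 8.11 ± 0.08 in iPS cells and was detected on no MEF or OKM array. It rose at least 5.50-fold in iPS against OKM cells (adjusted p = 1.24e-12, limma). They were the 2 members among 28 genes of the FGF and ERK list on the array.

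Trh, the precursor of thyrotropin-releasing hormone, had 14.09, 14.12, 14.35 and 13.76 in ES cells, against 4.45 to 4.71 in MEF, 9.68 to 9.93 in OKM and 12.33 to 12.59 in iPS cells. No groups overlapped. It rose at least 17.2-fold in OKM cells against MEF and by 2.62 ± 0.11 in iPS against OKM cells (adjusted p = 4.84e-17 and 3.72e-12, limma). Mybl2, a cell cycle transcription factor, was detected on all 16 arrays and rose at both steps, by 3.17 and then 1.09 (adjusted p = 1.47e-15 and 1.47e-08, limma), although with median scaling the second change was 0.98 and not called. Its ES level of 13.57 ± 0.16 lay 1.31 above that of iPS cells (12.27 ± 0.05), and its 3 probes had gaps of 1.13 to 1.29. Ifitm1, an interferon-inducible membrane protein also made by ES cells, was among the least even members, with 6.98, 8.08, 8.12 and 7.11 in ES cells, against 4.41 to 4.47 in MEF, 5.26 to 6.40 in OKM and 4.83 to 6.12 in iPS cells. OKM and iPS arrays overlapped, and Ifitm1 was detected on 2 and 3 of their 4 arrays.

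The germline list, of meiosis and germ cell factors, had 4 members among 29 genes on the array. Stag3, a cohesin subunit of meiosis, had 10.76 ± 0.18 in ES cells, against 6.42 ± 0.14 in MEF, 5.83 ± 0.26 in OKM and 8.71 ± 0.14 in iPS cells. Tex14, needed for bridges between germ cells, had 9.55 ± 0.29 in ES and 7.45 ± 0.32 in iPS cells and was detected on no other array. Dnd1, an RNA-binding protein of germ cell survival, had 10.76 ± 0.23 in ES, 5.83 ± 0.24 in MEF, 6.35 ± 0.26 in OKM and 9.14 ± 0.15 in iPS cells. Stag3 and Dnd1 rose by 2.87 and 2.79 log2 units in iPS against OKM cells (adjusted p = 5.26e-12 and 5.10e-11, limma), and Tex14 at least 3.48-fold (adjusted p = 2.19e-11, limma). Smc1b, the meiotic partner of Smc3, was dim in ES cells (7.46 ± 0.45) and detected nowhere else. Of the 29 listed genes on the array, 13 passed the detection filter, and all 13 were detected on all ES arrays. Of these 13, 9 rose and 0 fell in iPS against OKM cells, where 7.28% of all genes rose and 5.95% fell. In OKM cells against MEF, 2 rose and 0 fell, where 16.1% and 15.7% did. Of the 29, 25 were detected on no OKM array and 27 on no MEF array. Most of the 13 thus had little room to fall in either contrast.

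Other lineage lists gave single members. Tfap2c, a factor of trophoblast and germ cells, had 12.46, 12.41, 12.54 and 12.44 in ES cells, against 4.75 to 5.01 in MEF, 11.35 to 11.53 in OKM and 11.20 to 11.51 in iPS cells. OKM and iPS cells overlapped, and its rise of at least 50.6-fold in OKM cells against MEF was the largest of any member in that contrast (log2 change 6.58 ± 0.09, adjusted p = 2.17e-19, limma). Its 3 probes had gaps of 1.02 to 1.18. Tfap2c was the only member among 18 trophoblast markers on the array, and the list did not share its pattern. Over the 13 tested, ES cells differed by a median of 1.83 from MEF, 0.35 from OKM and -1.66 from iPS cells. Lama1, a laminin chain of the early basement membrane, was the only member among 18 primitive endoderm markers on the array, with 10.46 ± 0.25 in ES cells, against 6.35 ± 0.27 in MEF, 6.37 ± 0.20 in OKM and 7.73 ± 0.24 in iPS cells. Gata4, Sox17, Foxa2 and Afp of that list were detected on no array. Over the 11 tested in it, ES cells differed by a median of -2.56 from MEF, 0.02 from OKM and -0.73 from iPS cells. The lists of LIF and STAT3, Wnt, 2-cell stage, primed epiblast, neural, mesoderm and muscle, blood, imprinted, MHC class I and glutathione genes held 0 members. Only genes detected on all ES arrays could be members, and 2.8% of those were. The 2-cell stage list had 2 such genes, blood 4, neural 5, mesoderm and muscle 5, primed epiblast 6 and the other lists 11 to 25. Lists of this size can hold 0 members at that share.

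The gene with the largest gap was Cbwd1, of the COBW domain family. Its ES arrays gave 10.01, 9.74, 10.38 and 10.42, against 4.37 to 4.59 in MEF, 4.37 to 4.44 in OKM and 4.38 to 4.48 in iPS cells, which are background levels. The ES level was at least 20.9-fold that of MEF, at least 22.4-fold that of OKM and at least 24.3-fold that of iPS cells. Wdr46, a nucleolar protein of ribosome assembly, was as extreme, with 10.27, 10.23, 10.00 and 10.09 in ES cells, against at most 5.35 on any other array, at least 24.5-fold above iPS cells. Its second probe had a gap of 3.38 beside 3.44. Apoa2, an apolipoprotein of high-density lipoprotein, had 9.96 ± 0.11 in ES cells, at least 21.5-fold above iPS cells, and was also detected on no other array.

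Cbwd1, Wdr46 and Apoa2 were the 3 members with a gap of at least 3. All belong to the 23 whose brightest probe was detected in ES cells alone. The others of these 23 were Aqr, Crtac1, Tmem68, Gm3696, Hal, Eif2s3y, Tesc, 1700016D06Rik, Trim59, Fastkd3, Il1b, Twistnb, Wdr20rt, Smc1b, Mt3, Tspo2, Chga, Gja4, Mobp and Lrrc2. Their ES levels ran from 6.91 (Lrrc2) to 8.97 (Crtac1). They include genes known to work in unrelated tissues, such as Hal, the histidine ammonia-lyase of liver and skin, Il1b, a cytokine of macrophages, Chga, a granule protein of endocrine cells, and Mobp, a protein of myelin. Aqr, a helicase of the spliceosome, had 8.74 ± 0.32 in ES cells and was at least 9.23-fold above iPS cells. A second Aqr probe, with 6.08 in ES cells and a gap of 0.29, did not show a difference of that size. It was detected on 3 ES arrays, 1 OKM array and 1 iPS array, so Aqr was not undetected outside ES cells by every probe. Strain differences under the probes were not tested for any of the 23.

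Eif2s3y, a translation initiation subunit encoded on the Y chromosome, had 7.32, 7.91, 8.48 and 8.06 in ES cells and 4.35 to 4.62 on all other arrays. It was the only member on the Y chromosome. The other Y-linked genes on the array did not share its pattern, but Usp9y, Zfy1, Zfy2 and Sry were detected on no array and could show none. Kdm5d was detected on no ES array but on 1 MEF, 2 OKM and 1 iPS array. Uty was detected on 2, 3, 1 and 2 arrays of ES, MEF, OKM and iPS cells. Xist was detected on the 4 MEF arrays alone, at 6.01.

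Several members with gaps above 2 were detected on every array or nearly so. Nup160, a nuclear pore subunit, had 11.26 ± 0.14 in ES cells, against 8.20 ± 0.25 in MEF, 7.72 ± 0.34 in OKM and 7.95 ± 0.25 in iPS cells. Prcp, a lysosomal peptidase, had 10.76 ± 0.30 in ES cells, against 7.68 ± 0.09 in MEF, 7.80 ± 0.18 in OKM and 7.46 ± 0.07 in iPS cells. Neither was called in any contrast among MEF, OKM and iPS cells. Ttc27, a protein with tetratricopeptide repeats, ran against the general order. It had 10.53 ± 0.16 in ES cells, against 7.54 ± 0.23 in MEF, 5.76 ± 0.54 in OKM and 5.07 ± 0.23 in iPS cells, where no array detected it. Ttc27 fell by 1.78 in OKM cells against MEF and at least 4.02-fold in iPS cells against MEF (adjusted p = 4.45e-07 and 5.26e-09, limma). Without background correction the first of these changes was -0.96 and not called. Atp6v1d, a subunit of the proton pump of acidic organelles, fell by 1.85 and 1.28 in the same contrasts (adjusted p = 3.80e-09 and 4.22e-07, limma) and had 11.33 ± 0.18 in ES cells.

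Further members had gaps among the 20 largest. Pgc, the stomach protease precursor progastricsin, had 10.80, 10.84, 11.03 and 9.78 in ES cells, against 6.69 to 7.63 in iPS cells and no detection in MEF or OKM cells, and rose at least 2.55-fold in iPS against OKM cells (adjusted p = 8.00e-08, limma). Olig1, a transcription factor of oligodendrocytes, had 10.00 ± 0.32 in ES cells and 6.20 ± 0.18 in MEF, no detection in OKM cells and detection on 1 iPS array. Cplx1, a complexin of synaptic vesicles, had 9.90 ± 0.30 in ES and 6.31 ± 0.21 in iPS cells, and Pmel, a melanosome protein, 9.98 ± 0.57 and 6.90 ± 0.37. Both were detected on no MEF or OKM array. Cplx1 and Pmel rose at least 1.58-fold and at least 2.38-fold in iPS against OKM cells (adjusted p = 1.08e-07 and 1.39e-06, limma). Without background correction their log2 changes were 0.55 and 0.85, against 1.39 and 1.91 with it, and not called. Fam25c and Smtnl2 were instead raised at the first step, at least 4.59-fold and at least 3.93-fold in OKM cells against MEF (adjusted p = 9.28e-12 and 2.57e-11, limma), with 11.79 ± 0.16 and 10.79 ± 0.34 in ES cells. Serpinb6c, a serine protease inhibitor, had 11.04 ± 0.40 in ES and 8.49 ± 0.06 in iPS cells and rose by 2.94 in iPS against OKM cells (adjusted p = 3.33e-11, limma). Dmtn, the actin-bundling protein dematin, had 11.48 ± 0.17 in ES and 9.16 ± 0.19 in iPS cells and rose by 2.57 (adjusted p = 3.20e-10, limma). Tekt1, a tektin of cilia, had 9.05 ± 0.33 in ES cells and 5.54 ± 0.17 in iPS cells, where 2 arrays detected it. No OKM array detected it, and its iPS mean lay below the level counted for OKM cells, so no fold is given. Its log2 change of 1.01 in iPS against OKM cells was called, but was 0.46 and not called without background correction, 0.99 and not called with median scaling, and 0.94 to 1.00 and not called without OKM replicate 1 or 3 or iPS replicate 1 or 2.

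The 13 members that fell in OKM cells against MEF were each detected on all 4 MEF arrays. Fabp3, a fatty acid carrier, had 13.51 ± 0.04 in ES cells, against 10.25 ± 0.08 in MEF, 7.27 ± 0.13 in OKM and 12.35 ± 0.11 in iPS cells. It fell by 2.99 in OKM cells against MEF and rose by 5.08 in iPS against OKM cells (adjusted p = 2.73e-15 and 8.48e-18, limma). Igfbp2, an insulin-like growth factor binding protein, had 12.99, 13.06, 12.46 and 13.06 in ES cells, against 11.11 to 11.56 in MEF, 8.70 to 9.11 in OKM and 11.14 to 11.52 in iPS cells. MEF and iPS arrays overlapped, and OKM cells lay below both. Igfbp2 fell by 2.36 in OKM cells against MEF and rose by 2.35 in iPS against OKM cells (adjusted p = 1.12e-10 and 4.50e-10, limma). Its second probe gave a gap of 1.52 beside 1.61. Atp1b1, the beta subunit of the sodium pump, behaved alike, with a fall of 2.07 and a rise of 2.15 (adjusted p = 3.76e-12 and 1.03e-11, limma), and 12.03 ± 0.10 in ES cells.

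Several members rose at the first step without a called rise at the second, among them Tfap2c, Lrrc34 and Fcho1. Others were Hap1 (log2 changes of 3.98, then -0.47) and Amhr2 (2.95, then 0.21). Lrrc34, a leucine-rich repeat protein, had 11.98 ± 0.15 in ES cells, against no detection in MEF, 10.63 ± 0.25 in OKM and 9.93 ± 0.24 in iPS cells. It rose at least 29.3-fold in OKM cells against MEF (adjusted p = 1.67e-16, limma), and iPS cells lay 0.69 below OKM cells, under 2-fold. Fcho1, an endocytosis adaptor, rose by 4.53 in OKM cells against MEF (adjusted p = 1.70e-13, limma) and had 10.96 ± 0.15 in ES cells. The 1 member called lower in iPS than in OKM cells was Ly75, an endocytic receptor best known from dendritic cells. It had 8.11 ± 0.19 in ES cells, against 5.33 ± 0.25 in MEF, 6.17 ± 0.16 in OKM and 5.08 ± 0.13 in iPS cells, and fell at least 1.55-fold (log2 change -1.09 ± 0.13, adjusted p = 1.84e-06, limma). Without background correction that change was -0.42 and not called.

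Among the members at the edge of the limit, Tcf15, a bHLH factor tied to exit from naive pluripotency, had 11.67 ± 0.37 in ES cells, against 4.47 ± 0.06 in MEF, 8.25 ± 0.12 in OKM and 10.64 ± 0.25 in iPS cells. It rose at least 5.63-fold in OKM cells against MEF and by 2.39 in iPS against OKM cells (adjusted p = 2.65e-13 and 6.20e-10, limma). Lsr, a tight junction receptor, rose at least 2.77-fold in OKM cells against MEF (adjusted p = 5.42e-11, limma). Faah, which degrades the lipid anandamide, rose at least 1.33-fold in iPS against OKM cells (adjusted p = 3.40e-08, limma), but its log2 change of 1.49 was 0.64, and not called, without background correction. Atp5g2, a subunit of mitochondrial ATP synthase, and Erich1 were called in none of the 3 contrasts. Among the brightest members, Pfkl, the liver-type phosphofructokinase of glycolysis, had 14.21 ± 0.21 in ES cells, against 11.54 ± 0.10 in MEF, 12.41 ± 0.18 in OKM and 12.97 ± 0.11 in iPS cells.

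By chromosome, the members were not spread evenly. Chromosome 8 held 29 of the 216 members (13.4%), although it holds 5.69% of the genes detected on all ES arrays. There, 29 of 439 such genes (6.61%) were members, against 187 of 7271 (2.57%) elsewhere and 1.42% to 4.14% on each other autosome. These shares come from the contrasts that chose the members and carry no test.

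Genes of chromosome 8 that were no members lay higher in ES cells too. Over 410 of them, the median difference was 0.50 against MEF, 0.53 against OKM and 0.54 against iPS cells. The medians of the other autosomes ran from 0.09 to 0.41 against MEF, from -0.03 to 0.18 against OKM and from -0.23 to 0.16 against iPS cells. ES cells were above MEF for 66.8% of the 410, above OKM cells for 74.4% and above iPS cells for 334 (81.5%). The shares of the genes elsewhere that were no members were 56.1%, 53.9% and 55%. Set against each gene's mean over the 12 CD1 arrays, the median of the chromosome 8 genes exceeded that of the others by 0.40 to 0.46 on the 4 ES arrays. The same excess was 0.08 to 0.10 on the MEF arrays, -0.06 to -0.04 on the OKM arrays and -0.05 to -0.02 on the iPS arrays. The 4 ES arrays thus stood apart from all others on this measure. Gain of chromosome 8 is a recurrent karyotype change of mouse ES cells in culture. DNA copy number was not measured here, and its part in these values was not tested.

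**Figure D4:**
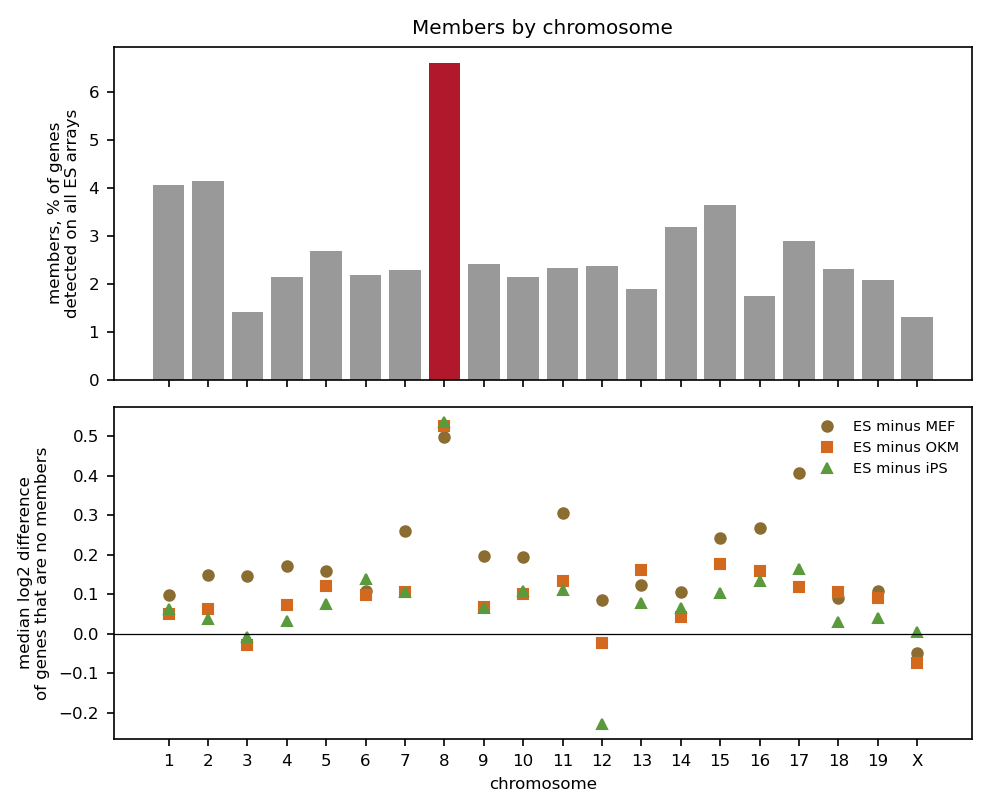
Top, members as a percent of the genes detected on all ES arrays, by chromosome; bottom, median log2 difference of the genes that are no members, ES minus MEF, OKM and iPS cells. Chromosome 8 has 6.61% members and its 3 medians are 0.50, 0.53 and 0.54, while chromosome 12 has the lowest median against iPS cells, at -0.23.

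The gaps of the 29 chromosome 8 members had a median of 1.17, close to the 1.24 of the 187 members elsewhere. Their highest value was 1.99, against 3.76 in that larger set. Of the 29, 19 were detected on all 12 arrays outside ES, against 74 of the 187 others. Cbln1, a synapse organizer, had the largest gap among them. Prmt7, an arginine methyltransferase, was the brightest, with 13.97, 14.02, 13.84 and 13.86 in ES cells, against 11.12 to 11.27 in MEF, 12.26 to 12.36 in OKM and 12.62 to 12.86 in iPS cells. No groups overlapped, and its 4 probes had gaps of 1.10 to 1.79. Further members there included Klf2, Fcho1, Sall1 (a zinc finger factor), Orc6 (of the replication origin complex), E2f4 (a cell cycle repressor), Dhodh (of pyrimidine synthesis), Setd6, Get3, Mcph1, Gcdh, Brf2 and Erich1. Brf2, a factor of RNA polymerase III, had near equal levels outside ES cells, with 10.48 ± 0.10 in ES cells, against 9.11 in MEF, 9.05 in OKM and 9.13 in iPS cells. In the contrasts among the other groups, 14 of the 29 rose and 0 fell in iPS against OKM cells, and the 187 members elsewhere gave 65 and 1, where 7.28% of all genes rose and 5.95% fell.

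Neighbouring members were few. With at most 2 genes between them, 4 pairs lay side by side in the RefSeq gene table: Tekt1 and Smtnl2 on chromosome 11, Dmtn and Fgf17 on chromosome 14, Cdc5l and Spats1 on chromosome 17, and Bbs2 and Mt3 on chromosome 8. Dmtn and Fgf17 both rose in iPS against OKM cells, as given above, but Dmtn was detected on all 16 arrays and Fgf17 on no MEF or OKM array. Smtnl2 was detected on all OKM arrays and Tekt1 on none. Cdc5l, a splicing factor, had 12.94 ± 0.18 in ES cells, against 10.28 ± 0.05 in MEF, 10.97 ± 0.10 in OKM and 11.42 ± 0.12 in iPS cells, and Spats1 was dimmer, at 8.51 ± 0.22 in ES and 6.91 ± 0.11 in iPS cells. Bbs2, of the ciliary BBSome complex, was detected on all 16 arrays and the metallothionein gene Mt3 in ES cells alone.

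Other probes of the same genes gave a second reading. They were not used to choose the members but measure the same contrast in the same RNA, so they are a description. There were 132 such probes for 78 members, and 138 members had 1 probe only. Of the 132, 86 were detected on all ES arrays, and 46 of these had a gap of at least 1, 29 from 0.5 to 1, 9 from 0 to 0.5 and 2 below 0. Their median gap was 1.03. The highest was 3.38 for Wdr46, followed by 2.40 for Pmel and 2.14 for Tcl1. The lowest was -0.36 for Hgh1, whose brightest probe had a gap of 1.27. A further 16 probes were detected on 1 to 3 ES arrays and 30 on none.

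**Figure D5:**
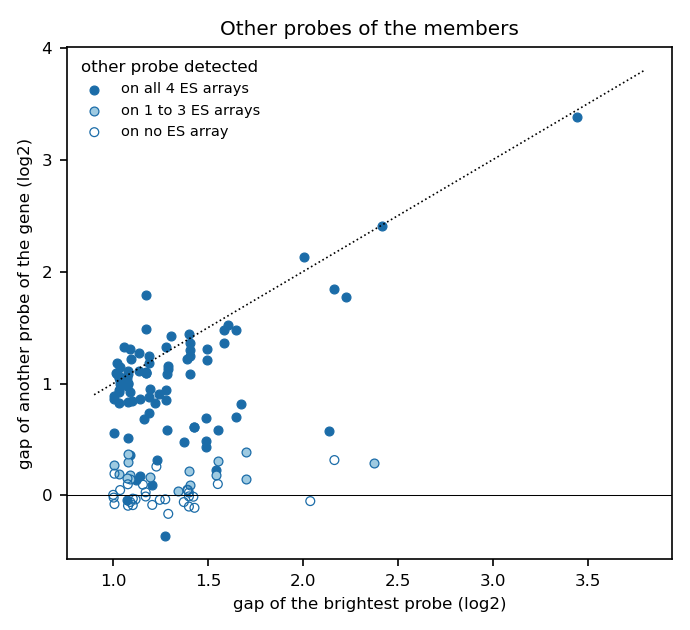
Gap of each of the 132 other probes (vertical, log2) against the gap of the brightest probe of the same gene (horizontal, log2), with equality as a dotted line. Of the 86 probes detected on all 4 ES arrays (filled), 2 lie below 0, and probes detected on no ES array (open) lie near 0.

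Within ES cells the members had a median SD of 0.22. ES replicate 4 was the lowest of the 4 for 80 members and replicate 5 for 61, and replicate 5 was also the highest for 72. Leaving out ES replicate 5, the array with the lowest sum of fibroblast markers, gave 218 members, of which 199 were among the 216.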

How the data were processed

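Total RNA from 16 dishes was measured on Illumina BeadChip arrays. The authors deposited a table of raw intensity and a detection p-value per probe and array, per the file headers, and a second, normalized table of linear intensity. The submitters' processing notes name GenomeStudio, and its version is not given in the sources used here. Of 25697 probes, 23978 had 1 gene symbol and 1719 had none in GEO's platform annotation, updated by Entrez ID for 23962 and by accession for 9 with a RefSeq table (GRCm38.p6), which was otherwise used for chromosomes and neighbours only. No coordinates of probes were used.

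Members were chosen as the report states. Levels came from neqc in limma 3.58.1 (R 4.3.3), which fits a normexp background on the detection p-values, adds an offset of 16, quantile normalizes and takes log2. The same probe per gene was kept where at least 4 of the 16 arrays detected it, which left 9451 genes, all 216 members among them. A model with 1 mean per group was fitted to all arrays with lmFit, contrasts.fit and eBayes, and two-sided p-values were adjusted by Benjamini-Hochberg over these genes. No contrast with ES cells was tested. With 4 arrays per group, the standard error of a log2 change had a median of 0.13. The fit and the selection were tested on simulated data.

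The members and gene lists were chosen with earlier results of these data known. Genes were named by rule: the 20 largest gaps, the 5 genes on either side of the limit, the 5 largest called changes per contrast and direction, up to 6 members per list, neighbouring members and the 5 highest ES levels. Genes beyond it, such as those of chromosome 8 and those detected in ES cells alone, were named after their values were seen. Alternatives covered the scale, normalization, the authors' table, filters, thresholds, probes, blocks and single arrays. Sequences are from RefSeq.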

Additional observations from a re-analysis of the deposited data

Results flagged for a closer look

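In 164 groups of 4 arrays that were checked for a single distant array, over the named members detected on all arrays of a group and the members' median and chromosome 8 excess per array, 13 had one, where chance alone gives about 5% of such groups. In ES cells, replicate 5 was low for Lefty1 (12.12, the others 13.56 to 13.66), Pmel (9.12, the others 10.25 to 10.27), Cplx1 (9.45, the others 10.01 to 10.08) and Tex14 (9.13, the others 9.64 to 9.72). ES replicate 4 was low for Igfbp2 (12.46, the others 12.99 to 13.06).

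In OKM cells, replicate 1 was high for Sox2 (10.36, the others 10.01 to 10.07), replicate 3 was low for Lsr (6.90, the others 7.28 to 7.36) and replicate 4 low for Trh (9.68, the others 9.91 to 9.93). The members' median level was 6.85 on OKM replicate 3, against 6.77 to 6.78 on the other OKM arrays. In iPS cells, replicate 4 was high for Igfbp2 (11.52, the others 11.14 to 11.19) and Klf2 (11.12, the others 10.89 to 10.92), and replicate 1 was high for Pgc (7.63, the others 6.69 to 6.85) and low for Atp5g2 (10.71, the others 11.10 to 11.15).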

How the results depend on the processing

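The count of members, 216, depended on the scale and the limit. It was 463 on the background-corrected scale and 564 in the authors' normalized table, with 216 and 214 of the original members in them, and 403 and 53 with gaps of 0.8 and 1.5. Median scaling gave 252 (209 shared) and the mean of all probes 180 (168 shared). The first and the last 8 arrays of the deposited table alone gave 225 and 224, and 162 members were found in both and in the full set. Leaving out single arrays gave 208 to 234, and 169 members were found in every such selection.

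For OKM against MEF (51 rose, 13 fell), 7 fell without background correction and 20 in the authors' table, and without the fold threshold 95 rose and 39 fell. For iPS against OKM (79 and 1), the counts were 49 and 0 without background correction, 137 and 11 without the fold threshold, and 2, 3 and 3 fell with median scaling, in the authors' table and in the last 8 arrays. For iPS against MEF (115 and 3), the counts were 78 and 2 without background correction, and 5 fell in the authors' table and 9 without the fold threshold. Leaving out single arrays gave 50 to 52 rises and 13 to 16 falls in OKM against MEF, 76 to 82 and 1 to 2 in iPS against OKM (2 falls without OKM replicate 4 or iPS replicate 1), and 113 to 116 and 3 to 4 in iPS against MEF. Same-numbered OKM and MEF arrays lay in the same part of the table, with correlations of deviations from 0.008 to 0.55. Same-numbered iPS arrays lay in the other part, with correlations from -0.385 to 0.074 against MEF and OKM arrays. Pairing by number and table part cannot be told apart in these values. With a replicate block or a table part block, the 6 counts stayed the same (51 and 13, 79 and 1, 115 and 3). Both blocks hold MEF, OKM and iPS arrays in equal numbers, so neither could alter a log2 change, only its standard error. The equal counts thus do not show that block effects are absent. Shares over all genes were computed for the main setting only. The cause of the differences between settings was not tested.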
